A study of Mus musculus with 9 samples.

Results

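Wnt receptors and coreceptors were examined in ST2 cells, a mouse bone marrow stromal line whose cells can become osteoblasts or adipocytes. The genes were chosen by name as the receptors that bind Wnt proteins at the cell surface: the Frizzled receptors Fzd1, Fzd2, Fzd4, Fzd5, Fzd7 and Fzd8, the coreceptors Lrp5 and Lrp6, and the receptor tyrosine kinase-like proteins Ror2 and Ryk. These are 10 of the 54532 genes in the deposited table, and all 10 passed the filter on low counts that left 14004 genes for testing. Poly-A RNA was sequenced from 9 libraries, 3 of each group, after 72 h. The vehicle group received vehicle, the next group received recombinant human Wnt3a (rhWnt3a) at 50 ng/ml, and the last is titled with both rhWnt3a and OSMI, an inhibitor of O-GlcNAc transferase, the enzyme that attaches O-GlcNAc sugars to proteins inside the cell. The treatment label of this last group lists only OSMI at 20 μM, so its rhWnt3a dose is not on its labels, and its RNA is called rhWnt3a with OSMI after the titles. No group is labelled as vehicle plus OSMI, so a difference between the last group and the others cannot be told apart into an effect of the inhibitor alone and an effect on the Wnt response. All libraries come from this 1 line, and the labels do not say whether they came from separate cultures, so p-values measure only the spread between these libraries.

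A Wnt protein binds a Frizzled receptor through its extracellular cysteine-rich domain. In the branch that acts through β-catenin it also binds Lrp5 or Lrp6, single-pass coreceptors whose phosphorylated tails draw Axin to the membrane, so that β-catenin escapes degradation and reaches TCF and LEF factors on DNA. Ror2 and Ryk bind Wnts mainly in branches that do not need β-catenin. In bone, loss of LRP5 lowers bone mass and activating changes raise it, and Wnt signalling in stromal cells favours osteoblasts over adipocytes.

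Counting totals ran from 16135898 to 17583945 per library, and the CPM (counts scaled to library size with TMM factors) of 3 counts ran from 0.170 to 0.191. Axin2, a feedback gene of β-catenin signalling used as a check, had 0.244, 0.892 and 0.566 CPM in the vehicle libraries and 21.6, 16.8 and 18.8 with rhWnt3a. The libraries of rhWnt3a with OSMI had 12.3, 10.6 and 17.3 CPM of Axin2. Of 12 stromal markers none was at 3 counts or fewer in every library, whereas 5 of 7 blood cell markers (Ptprc and Cd3e among them), 2 of 5 endothelial markers (Cdh5 and Kdr) and all 4 epithelial markers were. Over this floor lay Cd68 with 5 to 30 counts, Csf1r with up to 6, Pecam1 with up to 7, Tek with 3 to 14, and Emcn. Among the stromal markers, Thy1 had only 0 to 4 counts per library and was not tested, and Eng had 11 to 49. In each group 1 library lay apart from the other pair: vehicle replicate 3, rhWnt3a replicate 2 and rhWnt3a with OSMI replicate 3. The first principal component of the deviations from group means, called the axis below, took 54.8% of the within-group variance, with vehicle 3, rhWnt3a 2 and rhWnt3a with OSMI 1 and 2 on its first side and the other 5 libraries on its second side. Deviations of each receptor from its group means were correlated with the axis over the 9 libraries. The correlation was negative for 9 of the 10 genes, from -0.98 for Lrp6 to -0.57 for Fzd2, and was 0.90 for Ryk. The axis was computed from the deviations of all tested genes, these 10 included. The share of all tested genes with such correlations is not given here, so these values are not a result about the receptors as a set. The part of the axis in the results was not tested. Differences within each side, which rest on 1 or 2 libraries of a group and have no test, are therefore given beside the changes. Leaving out the 3 libraries that lay apart keeps both OSMI libraries on the first side and the rhWnt3a and vehicle libraries on the second, so in that setting OSMI and the axis cannot be told apart.

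Called below means an adjusted p under 0.05 (Benjamini-Hochberg over all tested genes, edgeR quasi-likelihood test) with a log2 fold change beyond 0.5, and "rose" and "fell" are used only of called genes. Fold changes carry the standard error (SE) of the fit. Levels of different genes are compared as RPKM, the CPM per kilobase of the gene length in the table, which is not the length of a single transcript for every gene.

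The promoters of Fzd5 and Fzd7 are shown because these were the 2 receptors that rose in any comparison, both in rhWnt3a with OSMI against vehicle. Each window is the 250 bases before the RefSeq start of the gene on GRCm38.p6, printed 5′ to 3′ on the strand of the gene, with the GC box letters GGGCGG on either strand (CCGCCC on the other strand) in capitals. The Fzd7 window ends at 59482146, whereas the counted gene starts at 59482424, so the RefSeq start lies before that of the counted gene.
Fzd5, chr1:64737751-64738000, minus strand: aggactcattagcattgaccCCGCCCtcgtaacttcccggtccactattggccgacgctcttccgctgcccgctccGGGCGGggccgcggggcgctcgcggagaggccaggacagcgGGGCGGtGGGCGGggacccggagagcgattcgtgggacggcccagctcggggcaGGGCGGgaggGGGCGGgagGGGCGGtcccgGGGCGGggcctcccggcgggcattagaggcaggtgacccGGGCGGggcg
Fzd7, chr1:59481897-59482146, plus strand: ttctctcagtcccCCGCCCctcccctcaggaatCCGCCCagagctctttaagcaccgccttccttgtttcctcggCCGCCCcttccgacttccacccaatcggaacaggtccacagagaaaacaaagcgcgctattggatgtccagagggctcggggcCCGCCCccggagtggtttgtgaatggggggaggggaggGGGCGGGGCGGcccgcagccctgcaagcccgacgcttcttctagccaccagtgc

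The Fzd5 window held 9 GC boxes and the Fzd7 window 6, overlapping matches included. Of 32851 promoter windows of the same length, 32.7% held at least 1 GC box and 0.886% held 6 or more. The cut at 6 equals the Fzd7 count, so the last share is not a test of these windows. The GC content was 76.4% in the Fzd5 window and 65.2% in the Fzd7 window, against a median of 52.4% over all windows. Windows of like GC content were not compared. The Fzd4 window held 7 although Fzd4 was called in no comparison, whereas Ror2 had 4, Ryk 2 and Fzd1 0. RefSeq windows were matched for these 6 of the 10 genes. For Fzd1, as for Fzd7, the RefSeq start lay before the start of the counted gene. The TCF/LEF letters CTTTGAT and CTTTGAA, on either strand, were in 3.21% and 4.46% of all windows and in 0 of the 6. A match describes letters only, and no match says only that these letters are not in the window.

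Per length in the table, Fzd2 and Ryk were the most abundant of the 10 mRNAs in vehicle cells and Ror2 the least. Fzd2 (chromosome 11, 102604396 to 102608058, plus strand, 1 exon; ENSMUSG00000050288; positions here and below on mm10) was at 50.1 ± 6.26 RPKM (SD, n = 3) and Ryk (chromosome 9, 102834917 to 102908305, plus strand, 15 exons; ENSMUSG00000032547) at 45.6 ± 6.06 RPKM, and their libraries overlapped. Fzd8 followed at 32.6 ± 5.72 RPKM, above all libraries of the next gene. Fzd7 at 22.4 ± 2.30, Lrp6 at 19.5 ± 4.86, Fzd1 at 15.8 ± 2.55 and Lrp5 at 12.5 ± 3.35 RPKM formed a run in which each overlapped its neighbour. Fzd5 at 4.25 ± 0.409, Fzd4 at 2.37 ± 0.351 and Ror2 at 0.388 ± 0.0496 RPKM each lay below all libraries of the gene before it. The upper part of this order depended on the length used. With the length of 1 GENCODE M21 transcript per gene, an alternative chosen after the data were seen, Ryk (2505 in place of 4534 bases) was at 82.6 RPKM in vehicle, above every library of Fzd2, Lrp6 (9368 in place of 13672) was at 28.4 and Lrp5 (5161 in place of 9738) at 23.5. Fzd8 (5974 in place of 3346) was then at 18.3 RPKM and overlapped Fzd7 and Fzd1, while Fzd5, Fzd4 and Ror2 stayed the lowest in the same order.

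The order differed in the treated groups, given here with the lengths in the table. With rhWnt3a, Fzd2 at 61.9 ± 3.70, Ryk at 50.1 ± 4.76 and Fzd7 at 26.3 ± 1.93 RPKM led without overlap, and Fzd8 was sixth at 11.5 ± 0.799 RPKM. With rhWnt3a and OSMI, Fzd7 at 37.9 ± 4.43, Ryk at 35.4 ± 1.58 and Fzd2 at 32.6 ± 7.53 RPKM overlapped at the top, and Fzd5 at 7.03 ± 1.10 RPKM overlapped Lrp5 at 5.96 ± 1.48. With the transcript lengths Ryk led in both, at 90.7 and 64.1 RPKM, without overlap. Fzd4 and Ror2 were the lowest of the 10 by mean in all 3 groups with either length.

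**Figure D1:**
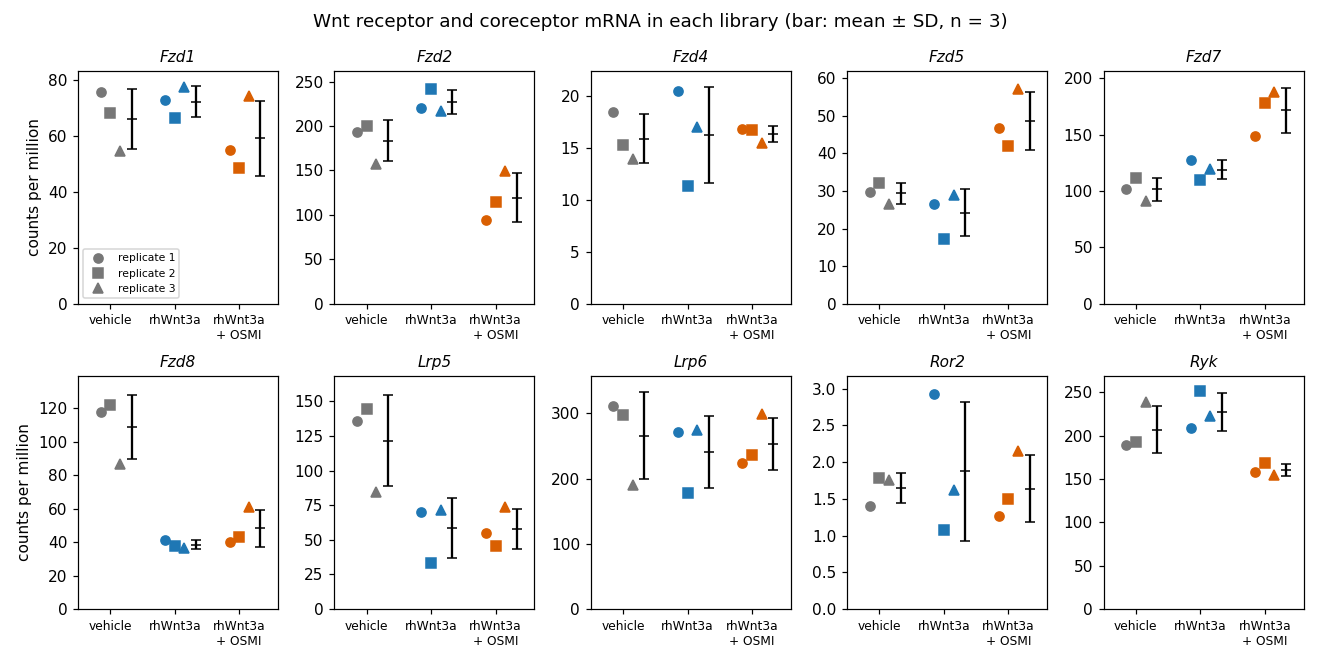
CPM (y axes, each from 0) of the 10 receptor and coreceptor genes in the 9 libraries, by group (x axes), with marker shapes for replicate numbers and the bar beside each group showing the mean ± SD of 3 libraries. Fzd8 lay between 87.0 and 122 in vehicle and between 36.4 and 61.1 in the 6 treated libraries, and Fzd5 was at 42.1 or above in the 3 libraries with OSMI and at 32.1 or below in the other 6.

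The first comparison asks what rhWnt3a does to the receptors that receive it. Of the 10 genes, 1 was called (10%), against 8.78% of all tested genes. That gene was Fzd8, which fell, as did 5.86% of all tested genes, and no receptor rose. The 3 libraries of the groups did not overlap for 3 of the 10 genes (Fzd2, Fzd8 and Lrp5), against 26.4% of all tested genes, so neither share is a result about the receptors as a set. The median log2 fold change of the 10 was 0.08, against 0.04 over all tested genes.

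Fzd8 (chromosome 18, 9212856 to 9216201, plus strand; ENSMUSG00000036904) encodes a Frizzled that binds several Wnts and signals with LRP5 and LRP6. It was at 118, 122 and 87.0 CPM in the vehicle libraries and at 41.5, 37.8 and 36.4 CPM with rhWnt3a. Every treated library was below every vehicle library, the vehicle library that lay apart being the lowest of its group. The log2 fold change was -1.50 (SE 0.19, 95% interval -1.93 to -1.07, edgeR adjusted p = 0.000948), a level 2.83-fold lower. It was called under all 18 alternative settings (other scalings, filters, tests, thresholds and left-out libraries), at log2 fold changes from -1.66 to -1.39. The unadjusted p and the missing fold threshold only relax the rule on the same fit, so they cannot lose a call made there. The Fzd8 difference was -1.20 within the first side of the axis and -1.62 within the second. The RPKM of Fzd8 depends on the gene model, as given above. Its fold change does not use the gene length, but counting on another gene model was not tested.

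Of 14 cartilage cell markers 9 were tested, and 8 of these fell with rhWnt3a, as Fzd8 and 5.86% of all tested genes did. The exception was Col11a2, at a log2 fold change of 0.01. Summed over the 14, the level was 451 to 601 CPM in vehicle libraries and 106 to 131 CPM with rhWnt3a. Col2a1, the collagen of cartilage, was at 178, 186 and 125 CPM in vehicle and 16.6, 13.9 and 15.7 CPM with rhWnt3a, whereas Matn1, Matn3 and Snorc were at 3 counts or fewer in every library. The 6 fat cell markers summed to 43.5 to 51.9 CPM in vehicle and 10.4 to 13.1 CPM with rhWnt3a, the 3 that were tested (Fabp4, Lpl and Pparg) all fell, and Adipoq, Plin1 and Cidec were at 3 counts or fewer throughout. The endothelial marker Emcn also fell, from 19, 34 and 22 counts in vehicle to 0 in all 3 rhWnt3a libraries. Of 11 tested stromal markers 2 fell as well, Ly6a at -1.53 and Vim at -1.10 on the log2 scale, and 0 rose. In rhWnt3a with OSMI, where Fzd8 was also lower than in vehicle, these sums were 90.2 to 141 CPM for cartilage and 11.9 to 14.8 CPM for fat markers. The part of these in the Fzd8 result was not tested, and in bulk RNA fewer cells of a type and less RNA per cell cannot be told apart.

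Lrp5 (chromosome 19, 3584828 to 3686564, minus strand, 23 exons; ENSMUSG00000024913) was lower in all 3 rhWnt3a libraries but was not called. It was at 136, 145 and 84.1 CPM in vehicle and 70.1, 33.4 and 71.3 CPM with rhWnt3a. The lowest library of each group was the one that lay apart. The log2 fold change was -1.06 (SE 0.31, 95% interval -1.76 to -0.36, edgeR adjusted p = 0.0702). Without vehicle replicate 3 the value was -1.26 and was called (adjusted p = 0.0358), and without vehicle replicate 3, rhWnt3a replicate 2 and rhWnt3a with OSMI replicate 3 together it was called as well (log2 fold change -1.02). In all it was called in 6 of 18 alternatives, at log2 fold changes from -1.26 to -0.78 over the 18. It was not called when any 1 of the other 8 libraries was left out (adjusted p from 0.0523 to 0.231), with the replicate block (0.111), with RLE scaling (0.0710) or with only the 6 libraries compared (0.0885). DESeq2 called it, at -1.08 (adjusted p = 0.0144), as did the fit with a correction for GC content and length, at -1.08 (adjusted p = 0.00755). Within the sides the difference was -1.33 and -0.99.

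Lrp6 (chromosome 6, 134446476 to 134566965, minus strand, 23 exons; ENSMUSG00000030201), the paralogue of Lrp5, gave a log2 fold change of -0.14 (SE 0.23, 95% interval -0.66 to 0.38). Its libraries were at 311, 297 and 189.6 CPM in vehicle and 271, 178 and 274 CPM with rhWnt3a. Both groups held 1 low library, and the groups overlapped.

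The ratio of Lrp6 to Lrp5 within each library, computed from RPKM, was 1.63, 1.46 and 1.60 in vehicle and 2.76, 3.78 and 2.74 with rhWnt3a. In the libraries of rhWnt3a with OSMI it was 2.91, 3.70 and 2.88. No vehicle library overlapped a treated one, although single libraries of both genes varied along the axis. A ratio shows unequal change of the pair, and this one was chosen after the values were seen, so it has no test. Lrp5 transcripts have 58.6% GC and Lrp6 transcripts 46.0%, against a median of 49.2% for tested genes.

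The other Frizzled genes were not called with rhWnt3a. Fzd2 was at 193, 199.6 and 157 CPM in vehicle and 220.5, 242 and 217 CPM with rhWnt3a, with no overlap. The log2 fold change of Fzd2 was 0.31 (SE 0.18, 95% interval -0.09 to 0.70, edgeR adjusted p = 0.410). Fzd7 (chromosome 1, 59482424 to 59486955, plus strand, 1 exon; ENSMUSG00000041075) gave 0.23 (SE 0.14, 95% interval -0.08 to 0.54), and Fzd5 (chromosome 1, 64730558 to 64737751, minus strand, 2 exons; ENSMUSG00000045005) gave -0.28 (SE 0.20, 95% interval -0.74 to 0.17). Fzd1 (chromosome 5, 4753839 to 4758035, minus strand) gave 0.13 with a 95% interval from -0.28 to 0.53, and Fzd4 (chromosome 7, 89404355 to 89413134, plus strand) gave 0.03 with an interval from -0.44 to 0.50. The upper bounds of Fzd1, Fzd2, Fzd4 and Fzd7 and the lower bound of Fzd5 lie past the fold threshold, so changes of that size could be missed here. Ryk gave 0.14 (SE 0.14), and Ror2 (chromosome 13, 53109312 to 53286124, minus strand), which had 19 to 48 counts per library, gave 0.18 with the widest interval of the 10, from -0.68 to 1.03.

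**Figure D2:**
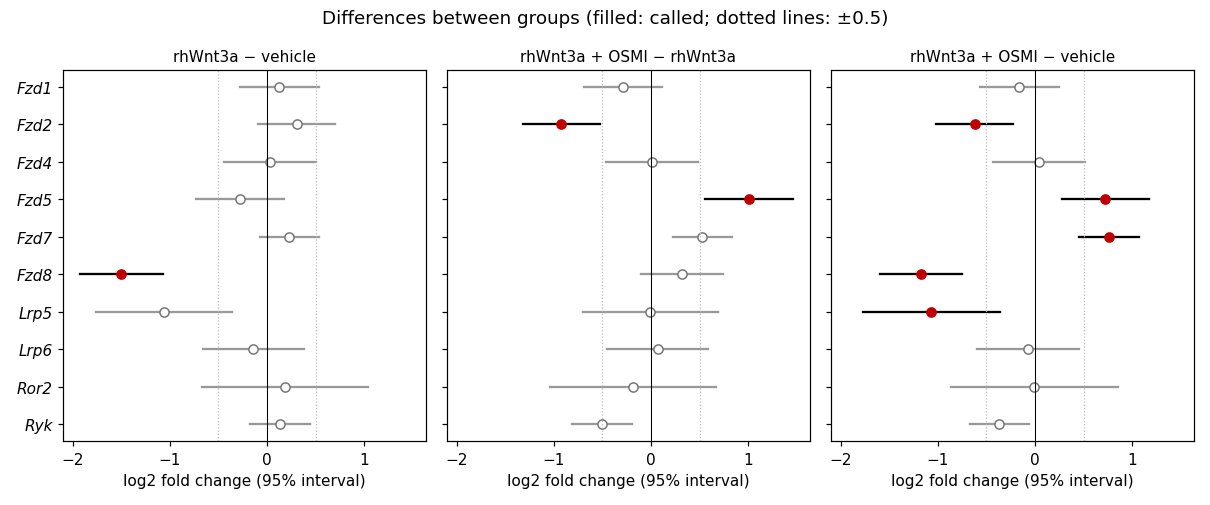
Log2 fold changes (x axis) of the 10 genes (y axis) in the 3 comparisons, with 95% intervals from the edgeR fit, filled points for called genes and dotted lines at the fold threshold of 0.5. Fzd8 at -1.50 is the single filled point with rhWnt3a, Fzd2 at -0.92 and Fzd5 at 1.01 are filled for the step from rhWnt3a to rhWnt3a with OSMI, and 5 points are filled against vehicle.

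The second comparison asks how the receptors differ when OSMI is present with rhWnt3a. Fzd5 rose and Fzd2 fell: 2 of the 10 genes were called (20%), against 4.74% of all tested genes. Of all tested genes 1.69% rose and 3.05% fell. Their groups and those of Fzd7 and Ryk did not overlap, 4 of 10 against 33.7% of all tested genes. The median log2 fold change of the 10 was 0.00, against -0.01 over all tested genes. Without vehicle replicate 3, rhWnt3a replicate 2 and rhWnt3a with OSMI replicate 3 together, 4 of the 10 were called, Fzd1 and Lrp5 being the added ones at log2 fold changes of -0.55 and -0.50, while the count over all genes was 1789 in place of 664. That setting sets OSMI libraries of the first side against rhWnt3a libraries of the second, and within the sides the differences were -0.37 and -0.02 for Fzd1 and 0.58 and 0.06 for Lrp5, the latter of opposite sign. Of 11 tested stromal markers 4 fell in this step (Col3a1, Ly6a, Nt5e and Vim) and 0 rose, with Cd44 at 0.73, Runx2 at 0.44 and Pdgfrb at -0.09 on the log2 scale, not called. The sum over the 12, made up mostly of Col1a1, Col1a2, Col3a1 and Vim, was 18079 to 20886 CPM with rhWnt3a and 8941 to 17329 CPM with rhWnt3a and OSMI, against 21559 to 28177 CPM in vehicle, and their part in the receptor results was not tested.

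Fzd5, a receptor for Wnts of the β-catenin branch, was at 26.4, 17.2 and 29.0 CPM with rhWnt3a and at 46.7, 42.1 and 57.0 CPM with rhWnt3a and OSMI. All 3 OSMI libraries were above all others in the study. The log2 fold change was 1.01 (SE 0.20, 95% interval 0.55 to 1.46, edgeR adjusted p = 0.0243), a level 2.01-fold higher. The call was lost in 6 of 18 alternatives, among them without rhWnt3a replicate 1, rhWnt3a replicate 2, rhWnt3a with OSMI replicate 1 or rhWnt3a with OSMI replicate 2 (log2 fold changes 1.09, 0.83, 1.07 and 1.13, adjusted p from 0.0518 to 0.0704). Without the 3 libraries that lay apart it was 0.67 and was called, but there the treatment and the side of the axis cannot be told apart, and the differences within the sides were 1.36 and 1.04. Fzd5 overlaps the unclassified transcript Gm38058 on the opposite strand, and whether the counting used strand is not given in the sources used here.

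Fzd2, a Frizzled known to serve both Wnt5a-type and β-catenin signalling, moved the other way. It was at 220.5, 242 and 217 CPM with rhWnt3a and at 94.3, 115 and 149 CPM with rhWnt3a and OSMI. The OSMI library that lay apart was the nearest to the rhWnt3a libraries. The log2 fold change was -0.92 (SE 0.18, 95% interval -1.32 to -0.53, edgeR adjusted p = 0.0200), a level 1.90-fold lower. The call was lost without any 1 of the 3 rhWnt3a libraries (log2 fold changes -0.93, -0.85 and -0.95, adjusted p 0.0635, 0.0756 and 0.0667) and without rhWnt3a with OSMI replicate 1 or 2 (-0.74 and -0.86, adjusted p 0.0945 and 0.102). Without the 3 libraries that lay apart it was -1.07 and was called, again with the treatment and the side of the axis not to be told apart, and within the sides it was -1.22 and -0.56.

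Fzd7, a receptor close to Fzd2 and Fzd1 in sequence, was not called in this step although its groups did not overlap. It was at 127.5, 110.1 and 119.7 CPM with rhWnt3a and 149, 179 and 188 CPM with rhWnt3a and OSMI, and the log2 fold change was 0.53 (SE 0.14, edgeR adjusted p = 0.0575). It was called in 4 of 18 alternatives, among them without vehicle replicate 3 (adjusted p = 0.0481) and with DESeq2 (adjusted p = 0.00899). Within the sides it was 0.57 and 0.60.

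Ryk, an atypical kinase that binds Wnts through a WIF domain, was at 209, 251 and 222 CPM with rhWnt3a and 158.5, 169 and 155 CPM with rhWnt3a and OSMI, without overlap. The log2 fold change was -0.50 (SE 0.14, edgeR adjusted p = 0.0691), and it was called in 3 of 18 alternatives, among them without vehicle replicate 3 (adjusted p = 0.0440). Ryk overlaps the transcript Gm47427 on its own strand. Fzd8 was at 40.2, 43.4 and 61.1 CPM with rhWnt3a and OSMI, overlapping the rhWnt3a libraries, at a log2 fold change of 0.32 (SE 0.19, 95% interval -0.10 to 0.74). Lrp5 gave -0.01 (SE 0.31, 95% interval -0.70 to 0.69) and Lrp6 gave 0.07 (SE 0.23, 95% interval -0.45 to 0.59), and these signs turned with the setting. Fzd1, Fzd4 and Ror2 overlapped between the groups as well.

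The ratio of Fzd7 to Fzd2 within each library set the groups apart. Per length it was 0.426, 0.453 and 0.468 in vehicle and 0.467, 0.367 and 0.445 with rhWnt3a, so that Fzd2 exceeded Fzd7 in these 6 libraries. With rhWnt3a and OSMI it was 1.28, 1.25 and 1.02, and Fzd7 exceeded Fzd2 in all 3. This ratio too was chosen after the values were seen and has no test. The coding sequences are alike but not near-identical: transcripts of Fzd2 and Fzd7 were 83.1% identical over 901 aligned bases, Fzd1 and Fzd2 81.2% over 1129, and Fzd1 and Fzd7 85.8% over 386. For none of the 10 genes did another gene's transcript share 100 or more bases at 97% identity or above.

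**Figure D3:**
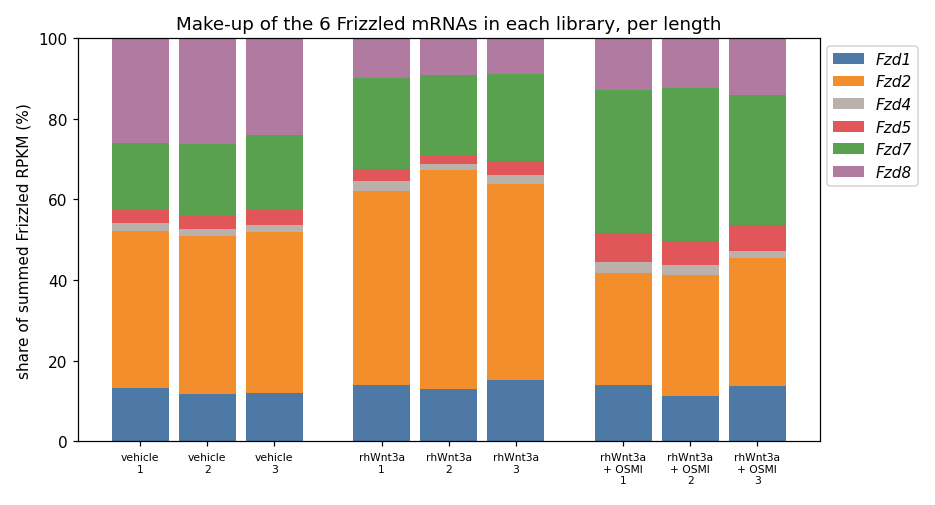
Share of each of the 6 Frizzled mRNAs in their summed RPKM (y axis, percent) in each library (x axis, 3 per group). Fzd8 took 24.1 to 26.2% in vehicle and 8.93 to 14.2% in the treated libraries, and Fzd7 took 32.2 to 37.9% in the libraries with OSMI against 16.6 to 22.5% in the others.

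The summed Frizzled RPKM overlapped between the groups while its make-up differed. The 6 genes summed to 127 ± 17.0 RPKM in vehicle, 123 ± 1.88 under rhWnt3a alone and 108 ± 18.2 when OSMI was added (SD, n = 3). Fzd8 held 25.5 ± 1.18% of the sum in vehicle, 9.38 ± 0.510% under rhWnt3a alone and 13.2 ± 0.903% when OSMI was added. Fzd2 held 39.3 ± 0.428%, 50.4 ± 3.41% and 29.8 ± 2.01%, and Fzd7 held 17.7 ± 1.02%, 21.4 ± 1.31% and 35.2 ± 2.86% in the same order. The largest share was that of Fzd2 in the vehicle and rhWnt3a libraries and that of Fzd7 in the libraries with OSMI. Fzd5 held 3.35 ± 0.195%, 2.85 ± 0.726% and 6.51 ± 0.712%, and Fzd1 held between 11.1 and 15.1% in every library. Shares sum to the whole, so a lower share of 1 gene raises the others. With the transcript lengths Fzd8 held 16.1, 5.48 and 7.85% in the same order of groups.

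The third comparison sets rhWnt3a with OSMI against vehicle. Of the 10 genes 5 were called (50%), against 14.2% of all tested genes. Fzd5 and Fzd7 rose (4.84% of all tested genes did), and Fzd2, Fzd8 and Lrp5 fell (9.34% of all tested genes did). The groups did not overlap for 6 genes, Ryk being the sixth, against 38.8% of all tested genes. The median log2 fold change was -0.12, against -0.01 over all tested genes. This comparison shares its libraries with the other pair of comparisons, so its values are not further evidence for them.

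Fzd8 at -1.18 (SE 0.19, 95% interval -1.60 to -0.75, edgeR adjusted p = 0.00275) and Fzd7 at 0.76 (SE 0.14, 95% interval 0.45 to 1.07, edgeR adjusted p = 0.00522) were called under all 18 alternatives. Fzd7 was at 102, 112 and 91.0 CPM in vehicle, so every library with OSMI was higher. The Fzd8 difference within the sides was -1.06 and -0.97, and that of Fzd7 was 0.84 and 0.81. Fzd8 ranged from -1.56 to -1.02 and Fzd7 from 0.58 to 0.89 over the alternatives.

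The calls of Fzd5, Fzd2 and Lrp5 against vehicle were lost under several of the settings with 1 library left out, while their directions held. Over all tested genes, the number called in this comparison was 1986, and it ranged from 1218 to 2328 with 1 library left out. The rhWnt3a libraries are not compared here and enter only through the shared processing and fit. Fzd5 was at 29.6, 32.1 and 26.5 CPM in vehicle and gave 0.73 (SE 0.20, edgeR adjusted p = 0.0383), but the call was lost without any 1 of the vehicle libraries (log2 fold changes 0.75, 0.84 and 0.66, adjusted p from 0.0642 to 0.0990), without rhWnt3a with OSMI replicate 1 (0.79) or 3 (0.60), and without the 3 libraries that lay apart (0.49). Fzd2 gave -0.62 (SE 0.18, edgeR adjusted p = 0.0421) and was called in 7 of 18 alternatives, the call being lost without vehicle replicate 1 or 2, any rhWnt3a library, or rhWnt3a with OSMI replicate 1 or 2, at log2 fold changes from -0.62 to -0.44 and adjusted p from 0.0570 to 0.171. Lrp5, at 54.8, 45.5 and 73.7 CPM with rhWnt3a and OSMI, gave -1.07 (SE 0.31, edgeR adjusted p = 0.0469) and was called in 10 of 18, the call being lost without vehicle replicate 1 or 2, rhWnt3a replicate 1 or 3, or rhWnt3a with OSMI replicate 1 or 2, at -1.06 to -0.88 and adjusted p from 0.0609 to 0.155. Directions held in all 18 for the 3 genes.

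**Figure D4:**
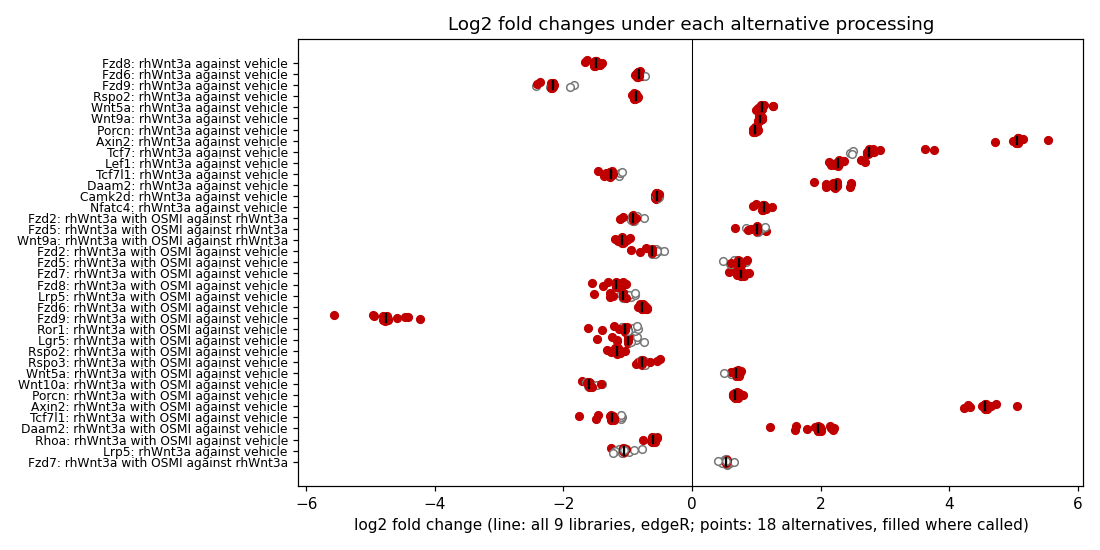
Log2 fold changes (x axis) under 18 alternative processings (points, filled where the gene was called) and with all 9 libraries in the edgeR fit (black line). Rows are the 8 called receptor differences, the called differences of the gene lists described below, and 2 receptor differences that were not called. These 2 are Lrp5 with rhWnt3a and Fzd7 between rhWnt3a with OSMI and rhWnt3a. The points of Fzd8 and of Fzd7 against vehicle are all filled, those of Fzd2, Fzd5 and Lrp5 are partly open, and no point crosses 0.

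Ryk against vehicle gave -0.37 (SE 0.14, edgeR adjusted p = 0.106), with 189.7, 192 and 239 CPM in the vehicle libraries, all above the 3 libraries with OSMI. Fzd1 gave -0.16 (SE 0.18), Fzd4 0.04 (SE 0.21), Lrp6 -0.07 (SE 0.23) and Ror2 -0.01 (SE 0.39). Lrp6 was at 224, 237 and 298 CPM with rhWnt3a and OSMI, inside the vehicle range. Fzd1 lay between 48.5 and 77.2 CPM, Fzd4 between 11.3 and 20.5 CPM and Ror2 between 1.08 and 2.92 CPM over all 9 libraries. These 4 genes and Ryk were called in none of the comparisons.

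The receptor gene whose group means spanned most on the log2 CPM scale was Fzd8, with a span of 1.48. The 5 tested genes whose log2 CPM followed it most closely over the 9 libraries were Nrbp2 (Pearson's r = 0.994), Comp (0.989), Tgfb1i1 (0.987), Llgl2 (0.987) and Apol6 (0.986). Comp encodes a matrix protein of cartilage and was also 1 of the cartilage markers summed above. These correlations describe 9 libraries in 3 groups, which share the group differences and the axis.

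Among further Wnt receptors and coreceptors outside the 10, each call was a fall. Of 10 such genes 8 were tested. Called were 25% of the 8 with rhWnt3a, 0% in the step to OSMI and 37.5% for rhWnt3a with OSMI against vehicle. Over all tested genes these shares were 8.78%, 4.74% and 14.2%. With rhWnt3a 2 fell and 0 rose, where over all tested genes 5.86% fell and 2.92% rose. The median log2 fold change was -0.20, against 0.04 over all tested genes, and 3 of the 8 values were above 0. Lrp4 had the largest of these, 1.30 (SE 0.40, edgeR adjusted p = 0.0829), and was not called. It was at 58.4, 49.9 and 25.6 CPM in vehicle and 131, 64.2 and 134 CPM with rhWnt3a, without overlap. Fzd6, a Frizzled of the planar cell polarity branch, was at 15.1, 12.9 and 14.4 CPM in vehicle and 8.94, 8.02 and 6.88 CPM with rhWnt3a, or -0.83 on the log2 scale (SE 0.16, edgeR adjusted p = 0.00980). The call of Fzd6 was lost without rhWnt3a replicate 3 (log2 fold change -0.73, adjusted p = 0.0593). Fzd9, a Frizzled needed for full bone formation in mice, had 27, 39 and 22 counts in vehicle, 9, 7 and 4 under rhWnt3a, and 1, 2 and 0 when OSMI was added. The call of Fzd9 with rhWnt3a was lost without vehicle replicate 1 or 2 or any 1 rhWnt3a library (log2 fold changes from -2.42 to -1.83, adjusted p from 0.0539 to 0.105). None of the 8 was called between rhWnt3a with OSMI and rhWnt3a in the edgeR test (1 at an unadjusted p under 0.05, namely Fzd9, and 0 by DESeq2). Against vehicle 3 fell in rhWnt3a with OSMI, Fzd6 at -0.78, Fzd9, and Ror1, the closest relative of Ror2, at -1.04 (SE 0.28, edgeR adjusted p = 0.0332). The call of Ror1 was lost without vehicle replicate 1 or 2, rhWnt3a replicate 1, or rhWnt3a with OSMI replicate 1 or 2, at log2 fold changes from -0.99 to -0.83, adjusted p from 0.0582 to 0.13.

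Genes that set how long Frizzleds stay at the surface included R-spondins, secreted proteins that protect Frizzleds from the ubiquitin ligases Rnf43 and Znrf3, and their Lgr receptors. Of 18 genes 10 were tested. In the 3 comparisons, in the order above, 10%, 0% and 30% of the 10 were called. Over all tested genes 8.78%, 4.74% and 14.2% were. Rspo2 was at 619.9, 602 and 583 CPM in vehicle and 321, 323 and 338 CPM with rhWnt3a. With rhWnt3a and OSMI, Rspo2 was at 229.8, 273 and 299.7 CPM. The 3 groups did not overlap. It fell by 0.88 on the log2 scale with rhWnt3a (SE 0.14, edgeR adjusted p = 0.00288) and by 1.17 in rhWnt3a with OSMI against vehicle, and it was the only one of the 10 called with rhWnt3a. Against vehicle Rspo3 at -0.77 and Lgr5 at -0.99 also fell in rhWnt3a with OSMI, the call of Rspo3 being lost without rhWnt3a replicate 1 or any 1 library of rhWnt3a with OSMI (log2 fold changes from -0.79 to -0.70, adjusted p from 0.0507 to 0.0996) and that of Lgr5 without vehicle replicate 1 or 2, rhWnt3a replicate 1, or rhWnt3a with OSMI replicate 1 or 2 (log2 fold changes from -0.94 to -0.74, adjusted p from 0.0529 to 0.124). Between rhWnt3a with OSMI and rhWnt3a none of the 10 was called (3 at an unadjusted p under 0.05, namely Lgr4, Apcdd1, Dact1, and 0 by DESeq2).

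Of the ligands and their secretion genes 8 of 23 were tested, and with rhWnt3a 3 rose (2.92% of all tested genes did) and 0 fell. Wnt5a, the main ligand of Ror2, was at 14.96, 15.4 and 16.4 CPM in vehicle and 37.1, 24.8 and 37.3 CPM with rhWnt3a. Libraries with OSMI held 23.9, 23.4 and 27.7 CPM of Wnt5a. It rose by 1.08 with rhWnt3a (SE 0.17, edgeR adjusted p = 0.00349) and stood at 0.68 in rhWnt3a with OSMI against vehicle, a call lost without vehicle replicate 1 or 2 or rhWnt3a with OSMI replicate 1 or 3 (log2 fold changes from 0.60 to 0.75, adjusted p from 0.0549 to 0.0861). Porcn, the enzyme that adds the lipid Wnts need to bind Frizzled, rose by 0.99 and 0.67 in the same comparisons. Wnt9a rose by 1.06 with rhWnt3a, from 6.90, 6.88 and 6.90 CPM to 14.4, 13.7 and 15.1 CPM, and was at 7.13, 5.80 and 7.29 CPM with rhWnt3a and OSMI. Its difference between rhWnt3a with OSMI and rhWnt3a, -1.09 (SE 0.15, edgeR adjusted p = 0.00497), was the single call by edgeR among the 65 tested genes of the 5 lists in that step, and it was called under all 18 alternatives. Wnt10a, with 8 to 36 counts per library, fell by 1.60 on the log2 scale in rhWnt3a with OSMI against vehicle, a call lost without vehicle replicate 1 or 2 or any 1 library of rhWnt3a with OSMI (log2 fold changes from -1.65 to -1.41, adjusted p from 0.0702 to 0.106). Mouse Wnt3a itself had 0 counts in all 9 libraries.

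Behind the receptors, all 23 transducers of the β-catenin branch were tested. In the 3 comparisons, in the order above, 17.4%, 0% and 8.7% of the 23 were called. Over all tested genes 8.78%, 4.74% and 14.2% were. With rhWnt3a, 3 rose and 1 fell: Axin2 by 5.06 (SE 0.35, edgeR adjusted p = 3.67e-05), Lef1 by 2.28 (SE 0.43) and Tcf7, at 1, 1 and 4 counts in vehicle and 13, 11 and 19 with rhWnt3a, rose, and Tcf7l1, a TCF that mostly represses, fell by 1.25 (SE 0.26). The call of Tcf7 was lost without vehicle replicate 1 or 2 or rhWnt3a replicate 3 (log2 fold changes from 2.46 to 2.50, adjusted p from 0.0645 to 0.0672), and that of Tcf7l1 without vehicle replicate 1 or 2 or rhWnt3a replicate 1 or 2 (log2 fold changes from -1.28 to -1.09, adjusted p from 0.0534 to 0.0723). Ctnnb1, the 3 Dvl genes, Apc and Gsk3b were not among those called. None was called between rhWnt3a with OSMI and rhWnt3a (4 at an unadjusted p under 0.05, namely Dvl1, Axin1, Gsk3a, Lef1, and 1 by DESeq2, Lef1), and against vehicle Axin2 rose by 4.55 and Tcf7l1 fell by 1.25, the latter call lost without vehicle replicate 1 or 2 or rhWnt3a with OSMI replicate 1 or 2 (log2 fold changes from -1.11 to -1.09, adjusted p from 0.0552 to 0.059). Of the planar cell polarity and calcium genes 16 of 18 were tested. For these 16 the shares called were 18.8%, 0% and 12.5% in the same order of comparisons. Daam2, a formin that binds Dishevelled, rose by 2.25 (SE 0.41, edgeR adjusted p = 0.00709) and Nfatc4, a calcium-controlled transcription factor, by 1.12 (SE 0.20) with rhWnt3a, and Camk2d fell by 0.54, a call lost without vehicle replicate 1 or 2 or rhWnt3a replicate 1 or 3 (log2 fold changes from -0.56 to -0.51, adjusted p from 0.0558 to 0.069). None of the 16 was called in the step to OSMI (3 at an unadjusted p under 0.05, namely Vangl2, Rhoa, Nfatc4, and 0 by DESeq2), and against vehicle Daam2 rose by 1.96 and Rhoa fell by 0.61, the latter call lost without vehicle replicate 2 or rhWnt3a with OSMI replicate 1 or 2 (log2 fold changes from -0.61 to -0.59, adjusted p from 0.0526 to 0.0578). Over the 5 lists, 13 of 65 tested genes (20%) were called with rhWnt3a, against 8.78% of all tested genes. In the step to OSMI 1 of 65 was called (1.54%, against 4.74%), and against vehicle 13 of 65 (20%, against 14.2%).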

How the data were processed

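Poly-A RNA of 9 libraries of ST2 cells, 3 for each of vehicle, rhWnt3a and rhWnt3a with OSMI, was read from 1 table of gene counts that the authors deposited. The processing notes of the submitters name fastp, HISAT2 2.0.5, featureCounts 1.5.0-p3, CASAVA and mm10 without roles, and the annotation release and the use of strand in counting are not given in the sources used here. The table also holds FPKM values computed by the authors, used here only as an alternative level, a gene length, and the authors' own comparisons (fold changes and p-values of each pair of groups), which were not used. Groups were taken from the labels.

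Counts were tested with edgeR 4.0.16 (R 4.3.3): the default filterByExpr settings (10 counts, 15 in total), TMM scaling, 1 quasi-likelihood fit of all 9 libraries, two-sided tests, and Benjamini-Hochberg adjustment over 14004 genes. Calls needed an adjusted p under 0.05 together with an absolute log2 fold change above 0.5. The SE was the absolute log2 fold change divided by the square root of F. Log2 CPM for the axis, the correlations and the differences within its sides used a prior count of 2, and the axis is the first principal component of deviations from the group means. RPKM used TMM-scaled totals and the gene length in the table. Counting totals of 16135898 to 17583945 set a floor of 3 counts at 0.170 to 0.191 CPM, which covers counting error only.

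All 10 receptors are named. Of each pathway list, up to 8 genes called in any comparison are named, largest log2 fold change first, with Axin2 as the check and the 5 genes whose log2 CPM followed most closely the receptor with the widest span. The ratios, the cartilage example Col2a1, mouse Wnt3a and the genes named at an unadjusted p or by DESeq2 alone were chosen after their values were seen. Lrp4 was named after its values were seen as well. Members, lists and alternatives were chosen with earlier results of these data known. Alternatives were RLE scaling, no filter, DESeq2 1.42.0 on the filtered genes, only the 6 libraries compared, an unadjusted p, no fold threshold, the replicate number as a block, each library left out, 3 libraries left out together and, chosen after seeing the data, a correction for GC content and length (13993 of 14004 genes had a GC value). Gene models came from GENCODE M21, with the same start and end as the table for 53499 of 54409 shared genes and for 9 of the 10 receptors, Fzd8 being the exception. Similarity between transcripts was searched with BLAST 2.17.0, and promoter windows came from RefSeq on GRCm38.p6.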

Additional observations from a re-analysis of the deposited data

How the results depend on the processing

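Over the 18 alternatives, no called receptor difference changed direction, and 3 of 8 were called throughout: Fzd8 in both comparisons with vehicle and Fzd7 in rhWnt3a with OSMI against vehicle. The unadjusted p and the missing fold threshold reuse the fit of all 9 libraries, so for these 8 they could change neither direction nor call. With rhWnt3a, 2 receptors in place of 1 were called without the filter, without the 3 libraries that lay apart, with the GC and length correction, with DESeq2 and at an unadjusted p (1 to 2 with 1 library left out), against 1230 genes in all that became 809, 2557 and 2155 with the replicate block, without the 3 libraries and at an unadjusted p (716 to 1506), while the 13 pathway genes became 24 and 22 in the last pair. For rhWnt3a with OSMI against rhWnt3a, the 2 receptors became 0 with the block and with only the 6 libraries compared, and 4 without the 3 libraries, with the GC and length correction and at an unadjusted p (0 to 4), the 664 genes became 1481 without the filter, 233 with the block, 1789 without the 3 libraries, 345 with only 6, 1054 with the GC and length correction, 1297 with DESeq2 and 2271 at an unadjusted p (203 to 764), and the 1 pathway gene became 3 without the filter, 17 without the 3 libraries, 6 with GC and length, 2 with DESeq2 and 9 at an unadjusted p (1 to 5). Against vehicle, the 5 receptors in rhWnt3a with OSMI became 3 with RLE scaling and 2 with the block (2 to 4), the 1986 genes 1297 with the block, 3351 without the 3 libraries and 3186 at an unadjusted p (1218 to 2328), and the 13 pathway genes 21 without the 3 libraries (6 to 14). The cause of these shifts was not tested.

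The labels do not say whether libraries with the same replicate number belong together. Correlations of deviations between libraries with the same number were 0.44, -0.49 and -0.49 between rhWnt3a and vehicle. They were -0.31, 0.37 and 0.33 between rhWnt3a with OSMI and rhWnt3a, and -0.32, -0.20 and -0.41 between rhWnt3a with OSMI and vehicle. Not every library correlated best with its own number.

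Only differences not called in the fit of all 9 libraries reversed. Lrp5 between rhWnt3a with OSMI and rhWnt3a was 0.0088 with RLE scaling and 0.0088 with DESeq2, 0.023 without the filter, 0.021 with the replicate block, 0.023 with only 6 libraries, and from -0.50 (without the 3 libraries) to 0.18 with libraries left out. Fzd4 was -0.00020 with rhWnt3a under the GC and length correction (-0.14 to 0.24 with 1 library left out), -0.16 without the 3 libraries and -0.10 under GC and length between the treated groups (-0.18 to 0.23), and -0.048 and -0.098 in these settings against vehicle (-0.04 to 0.19). Lrp6 between the treated groups was -0.25 without the 3 libraries and -0.18 under GC and length (-0.09 to 0.18), and its ranges with 1 library left out were -0.33 to 0.039 with rhWnt3a and -0.26 to 0.079 for rhWnt3a with OSMI against vehicle. Ror2 in that comparison was 0.038 with 6 libraries and 0.029 under GC and length (-0.25 to 0.18), and its other ranges were -0.26 to 0.46 with rhWnt3a (0.47 without the 3 libraries) and -0.44 to 0.30 between the treated groups (-0.71 without the 3). Fzd1 in rhWnt3a with OSMI against vehicle ranged from -0.35 to 0.00030, and was -0.52 without the 3 libraries. Ror2, with 19 to 48 counts per library, had the widest interval of the 10 at this depth, and the deposited FPKM moved no receptor level by more than the spread between libraries, whereas transcript lengths, an alternative chosen after the data were seen, moved those of Fzd8, Ryk, Lrp5 and Lrp6.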
